A study of Oryza sativa Japonica Group with 4 samples.

Results

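The genes described here are 9 rice genes of disease defence, 5 coding for pathogenesis-related (PR) proteins and 4 coding for enzymes of momilactone synthesis. They were chosen by their locus identifiers in the gene tables, out of 28491 genes listed in at least 1 library. The PR genes were PR1a (LOC_Os07g03710), PR1b (LOC_Os01g28450), PBZ1, also called PR10a (LOC_Os12g36880), PR10b (LOC_Os12g36850) and RSOsPR10 (LOC_Os12g36830). The momilactone genes were OsCPS4 (LOC_Os04g09900), OsKSL4 (LOC_Os04g10060), CYP99A3 (LOC_Os04g09920) and MAS (LOC_Os04g10010). RNA came from shoots of japonica rice (Oryza sativa), the parts above ground, at the stage with 4 leaves. The plants grew in soil under natural light, and the labels name no stress treatment. One group was labelled modd mutant, from the POSTECH collection of rice mutants and titled modd2, and the other was DongJin, the wild type cultivar, with 2 libraries each. The labels do not give the kind of mutation. Nor do they say whether replicates were grown or harvested apart, so each p-value measures the spread between 2 libraries a group, which may be technical.

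PR proteins are a set of unrelated families that accumulate in plants after attack by pathogens. PR1 proteins are small secreted proteins used as markers of the salicylic acid response, and PR10 proteins are small intracellular proteins, some of which degrade RNA. Momilactones are diterpenoid phytoalexins, antimicrobial compounds that rice makes on infection and also releases from its roots against neighbouring plants. They arise from geranylgeranyl diphosphate, the plastid precursor that also feeds gibberellin, carotenoid and chlorophyll synthesis, and most of the enzymes are encoded in a gene cluster on chromosome 4.

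Library totals ran from 5334814 to 5393972 expected reads, which are estimates summed over genes. Levels are given as FPKM, a read count scaled by transcript length and library total. MODD (LOC_Os03g11550), the gene named in the label, was at 36.9 and 46.6 FPKM in the modd-labelled libraries, against 20.95 and 21.3 FPKM in DongJin. It was called higher under the mutant label, by 0.93 ± 0.146 on the log2 scale (SE, edgeR adjusted p = 0.0272), and DESeq2 called it too, while limma did not. The transcript level thus does not check the label as a loss of MODD, and the groups are called as they are labelled. The 4 leaf markers summed to 7430 and 8510 FPKM in the modd-labelled libraries 1 and 2 and to 8739 and 9804 FPKM in DongJin 1 and 2, with the lowest sum in modd mutant 1. Among 5 root markers, no library listed OsYSL15, LSI2 or OsNRT2.1. LSI1 and OsHKT2;1 summed to 19.05 and 16.9 FPKM in the modd-labelled libraries 1 and 2 and to 15.4 and 11.7 FPKM in DongJin 1 and 2, with the highest sum in modd mutant 1. The part of either marker list in the results was not tested.

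For these 9 genes the library labelled modd mutant 1 stood apart. It held the highest level of 8 of them, all but CYP99A3. The 5 with enough reads to be tested were all highest there, as were 27.5% of all tested genes. The library labelled modd mutant 2 lay within or below the DongJin range for all but RSOsPR10. The 5 PR genes together reached 122.6 and 29.3 FPKM in the modd-labelled libraries 1 and 2, against 18.0 and 41.8 FPKM in DongJin 1 and 2. The 4 momilactone genes together reached 10.4 and 1.35 FPKM under the mutant label, against 1.75 and 3.14 FPKM in DongJin. In bulk tissue, fewer cells that express a gene and less RNA per cell cannot be told apart. Results are given with all 4 libraries and without modd mutant 1. A fit with a library left out has 1 library in that group. Its SE and p therefore rest on the spread within the other group, which edgeR moderates toward that of all tested genes.

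**Figure D1:**
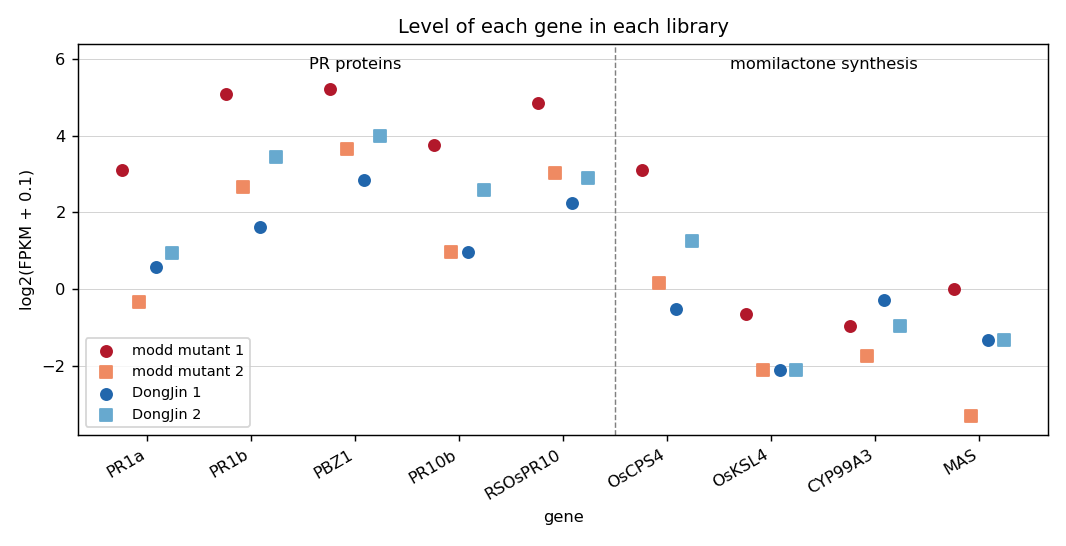
Level of each of the 9 genes in each library, as log2(FPKM + 0.1), with the libraries labelled modd mutant in red shades and DongJin in blue shades; each point is 1 library. The library labelled modd mutant 1 is the highest point for 8 genes, and MAS in modd mutant 2 is plotted at the floor because it was listed in no row there.

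Differences between the groups were tested with edgeR's quasi-likelihood test across all 19365 genes with enough reads, and p-values were adjusted over all of them by the Benjamini-Hochberg method. Of the 9 genes, 5 passed the filter on low counts. None of the 5 was called at an adjusted p under 0.05, where 0.837% of all tested genes were called and 0.501% were called higher in the libraries labelled modd mutant. None had an unadjusted p under 0.05 with this test, with DESeq2 or with limma on log2(FPKM + 1), and 1 had with edgeR without robust estimation. DESeq2 gave an adjusted p for 1 of the 5 only, PBZ1. The median log2 fold change of all tested genes was 0.005.

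PR1a, which codes for a secreted PR1 protein, had 41.6 and 3.4 reads in the modd-labelled libraries, against 6.78 and 9 reads in DongJin. Its levels were 8.5 and 0.69 FPKM under the mutant label, against 1.38 and 1.82 FPKM in DongJin. The mutant libraries lay on both sides of the DongJin libraries. Too few libraries reached the count minimum for PR1a to be tested. By summed reads it was 2.74-fold higher under the mutant label, with a 95% counting interval from 1.52 to 5.20, and 0.368-fold of DongJin without modd mutant 1, with an interval from 0.0688 to 1.29. Such intervals are exact for counts and cover counting error only, not the difference between libraries.

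The level of PR1a is uncertain, because expected counts can divide reads that match several genes. Its count was fractional in 3 of 4 libraries, beyond a tolerance of 0.005, and of the 9 genes it was the only one with a fractional count in any library. The locus LOC_Os07g03730, which the files do not name, is the next listed number after it. It had 306.4 and 83.6 reads in the modd-labelled libraries, against 75.2 and 84.25 reads in DongJin. The counts of the pair summed to 348 and 87 in the modd-labelled libraries, against 82 and 93.25 in DongJin, so the fractions cancelled in 3 libraries. PR1a took 11.95 and 3.91% of the pair's reads under the mutant label, against 8.27 and 9.65% in DongJin. For the sum, an alternative added after seeing the data, the log2 fold change was 1.27 ± 0.807 (SE, edgeR adjusted p = 0.532), and -0.04 ± 0.264 without modd mutant 1 (edgeR adjusted p = 0.983).

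PR1b, a PR1 gene on chromosome 1, showed the same single high library. Its levels were 34.2 and 6.22 FPKM in the modd-labelled libraries, from 148 and 27 reads, against 3 and 10.75 FPKM in DongJin, from 13 and 47 reads. The groups overlapped, with modd mutant 2 between the DongJin libraries. The mean was 20.2 ± 19.8 FPKM under the mutant label and 6.88 ± 5.48 FPKM in DongJin (SD, n = 2 each). The log2 fold change was 1.50 ± 1.16 (SE, edgeR adjusted p = 0.604). Without modd mutant 1 its sign turned, to -0.19 ± 0.945 (SE, edgeR adjusted p = 0.98).

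PBZ1, the probenazole-inducible PR10 protein, had the highest FPKM of the 9 genes in every library. Its levels were 37.5 and 12.5 FPKM in the modd-labelled libraries, from 194 and 65 reads, against 7.13 and 15.85 FPKM in DongJin, from 37 and 83 reads. The order was modd mutant 1, DongJin 2, modd mutant 2 and DongJin 1, so the groups overlapped. PBZ1 was above 86.7 and 63.6% of the listed genes in the modd-labelled libraries, against 51.7 and 70.0% in DongJin. The mean was 25.0 ± 17.6 FPKM under the mutant label and 11.5 ± 6.17 FPKM in DongJin (SD, n = 2 each). The log2 fold change was 1.06 ± 0.773 with all libraries (SE, edgeR adjusted p = 0.582) and 0.08 ± 0.498 without modd mutant 1 (edgeR adjusted p = 0.983).

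PR10b, a neighbour of PBZ1 by locus number, was lower in level. It was at 13.4 and 1.84 FPKM in the modd-labelled libraries, from 58 and 8 reads, against 1.85 and 5.96 FPKM in DongJin, from 8 and 26 reads. Modd mutant 2 and DongJin 1 had equal read numbers, with DongJin 2 above both and modd mutant 1 highest. The log2 fold change was 0.91 ± 1.15 (SE, edgeR adjusted p = 0.75), and -1.11 ± 0.723 without modd mutant 1 (edgeR adjusted p = 0.704), with the sign turned.

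RSOsPR10, first described as a root-specific PR10 gene, was the tested gene of the 9 whose groups did not overlap. Among all tested genes, 50.3% did not overlap. Its levels were 28.9 and 8.05 FPKM in the modd-labelled libraries, from 136 and 38 reads, against 4.67 and 7.37 FPKM in DongJin, from 22 and 35 reads. Modd mutant 2 and DongJin 2 differed by 3 reads. The mean was 18.5 ± 14.8 FPKM under the mutant label and 6.02 ± 1.91 FPKM in DongJin (SD, n = 2 each). The log2 fold change was 1.56 ± 0.777 (SE, edgeR adjusted p = 0.429) and 0.38 ± 0.385 without modd mutant 1 (edgeR adjusted p = 0.844). Of the 5 root markers, LSI1 and OsHKT2;1 were highest in modd mutant 1, as were 27.5% of tested genes, and the others had no reads. LSI1 had 108 and 98 reads in the modd-labelled libraries, against 94 and 78 reads in DongJin. OsHKT2;1 had 57 and 49 reads, against 38 and 22 reads in DongJin. A link between root markers and RSOsPR10 was not tested. The 3 PR10 genes had whole read numbers in all 4 libraries, so no reads were seen to be split among them.

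OsCPS4, the class II diterpene cyclase that makes syn-copalyl diphosphate and so opens the momilactone branch, was the momilactone gene with enough reads to test. Its levels were 8.59 and 1.02 FPKM in the modd-labelled libraries, from 119 and 14 reads, against 0.6 and 2.3 FPKM in DongJin, from 9 and 35 reads. Modd mutant 2 again lay between the DongJin libraries. The mean was 4.81 ± 5.35 FPKM under the mutant label and 1.45 ± 1.20 FPKM in DongJin (SD, n = 2 each). The log2 fold change was 1.55 ± 1.33 (SE, edgeR adjusted p = 0.639), and -0.68 ± 0.828 without modd mutant 1 (edgeR adjusted p = 0.885), with the sign turned.

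The other momilactone genes were close to the detection limit. OsKSL4, the synthase that turns syn-copalyl diphosphate into syn-pimaradiene, had 8 and 2 reads in the modd-labelled libraries, against 2 and 2 reads in DongJin. CYP99A3, a cytochrome P450 that oxidises syn-pimaradiene, had 4 and 2 reads under the mutant label, against 7 and 4 reads in DongJin. MAS, the dehydrogenase named momilactone A synthase, had 6 reads in modd mutant 1 and none listed in modd mutant 2, against 2 and 2 reads in DongJin. A count of 0 there allows up to 3 reads, or 0.56 CPM, counts scaled to a library of fixed size. None of these 3 genes passed the count filter. The ratio of summed reads, labelled modd mutant over DongJin, was 2.44 for OsKSL4 (95% counting interval 0.703 to 10.6), 0.532 for CYP99A3 (0.162 to 1.57) and 1.46 for MAS (0.347 to 7.05). No difference was detectable at this depth. Compared per length, OsCPS4 was at 8.59 FPKM in that library and OsKSL4, CYP99A3 and MAS at 0.54, 0.41 and 0.9 FPKM.

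Over all 9 genes, the ratio of summed reads was above 1 for 8 and below 1 for CYP99A3, ranging from 0.532 to 2.98. When the library labelled modd mutant 2 alone was set against both DongJin libraries, the ratio was above 1 for 2 genes, PBZ1 (1.06, counting interval 0.775 to 1.45) and RSOsPR10 (1.31, 0.845 to 2.01), and below 1 for 7. None of these 9 counting intervals lay wholly on one side of 1. Without modd mutant 2, in a fit where the lone mutant library was assumed to vary like DongJin, RSOsPR10 was called higher, at 2.20 ± 0.293 on the log2 scale (SE, edgeR adjusted p = 4.61e-06). PR1a, not tested with all libraries, entered that fit only through its 41.6 reads in modd mutant 1, against 6.78 and 9 reads in DongJin, both under the minimum count of 10. Its call there, at 2.33 ± 0.479 (SE, edgeR adjusted p = 0.00214), is therefore no support for a difference. In that fit 1.6% of all tested genes were called higher.

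**Figure D2:**
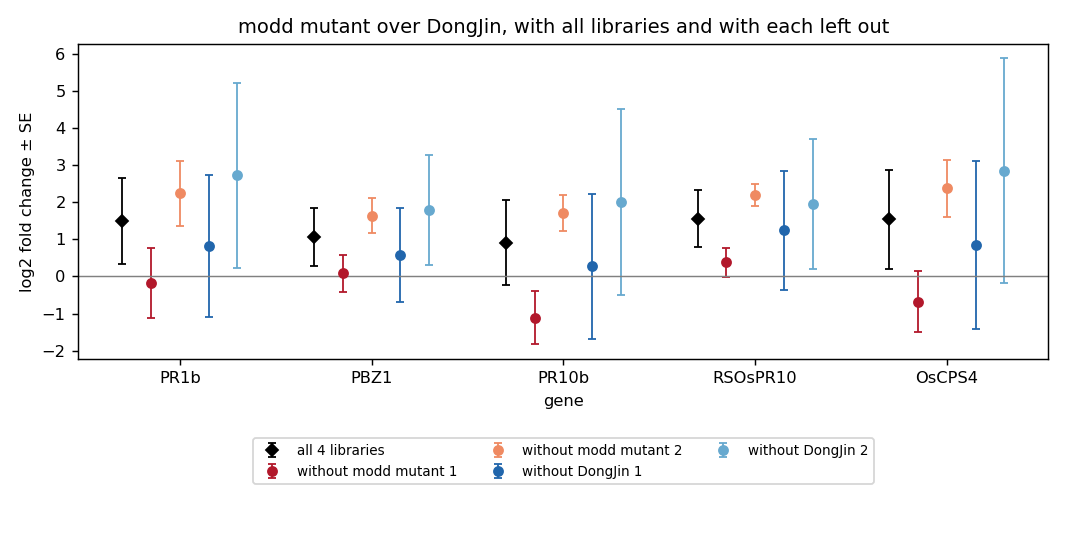
Log2 fold change, labelled modd mutant over DongJin, of the 5 genes that passed the count filter, with all 4 libraries (diamonds) and with each library left out (circles); bars are SE from edgeR. Without modd mutant 1 the values lie between -1.11 and 0.38, and with any other library left out they lie between 0.27 and 2.85.

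The spread within the groups was larger than for most genes. Between the libraries labelled modd mutant, the absolute log2 ratio of all tested genes had a median of 0.16, which is 1.12-fold, and between the DongJin libraries it had a median of 0.20, which is 1.15-fold. By this median the modd-labelled libraries did not differ from each other more than the DongJin libraries did. A median does not describe the genes with the largest ratios. OsCPS4 was 7.45-fold higher in modd mutant 1 than in modd mutant 2, on CPM with a prior count of 2, and 0.062% of tested genes had as high a ratio. The ratio was 5.91 for PR10b, 5.10 for PR1b, 3.40 for RSOsPR10 and 2.88 for PBZ1. All 5 passed 2-fold, which 0.991% of tested genes did, but PR10b passed the count filter only through modd mutant 1 and DongJin 2. By reads, the same ratio was above 1 for all 9 genes, and its counting interval lay above 1 for 7 of them, all but OsKSL4 and CYP99A3. This compares the pair of libraries, not conditions.

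The DongJin libraries also differed. OsCPS4 was 3.48-fold higher in DongJin 2 than in DongJin 1, PR1b 3.38-fold, PR10b 2.89-fold, PBZ1 2.26-fold and RSOsPR10 1.59-fold. Of the 5, 4 passed 2-fold, which 1.35% of tested genes did. The order with modd mutant 1 highest and DongJin 2 next was held by PR1b, PBZ1 and OsCPS4, and by 5.93% of tested genes. PR10b had the same order. All 5 were highest in modd mutant 1, as were 27.5% of tested genes. PR10b reached the minimum count of 10 only in modd mutant 1 and DongJin 2. Its ratios and its place in that order are therefore no support. PR1b, PBZ1, RSOsPR10 and OsCPS4 reached the minimum count of 10 in modd mutant 2 and DongJin 2 as well as in modd mutant 1. The shares describe the 5 tested genes and not all 9 genes.

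**Figure D3:**
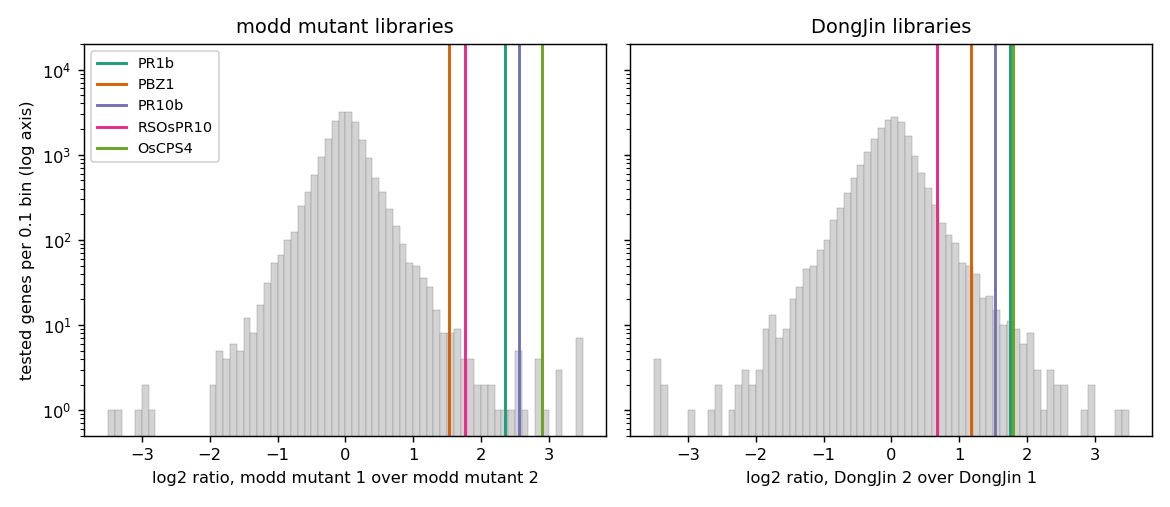
Distribution over the 19365 tested genes of the log2 ratio between the libraries labelled modd mutant (left) and between the DongJin libraries (right), with coloured lines at 5 of the defence genes; ratios beyond 3.5 in size are drawn in the end bins and the vertical axis is logarithmic. The 5 lines lie from 1.53 to 2.90 on the left and from 0.67 to 1.80 on the right.

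Each of the 5 tested genes was set against the other 44 tested genes of the lists, by the mean absolute difference of log2 CPM, centred on the 4 libraries. PR1b and OsCPS4 were nearest to each other, with a difference of 0.18, and none of the other 19364 tested genes was nearer to either of them. The nearest to PR10b was OsKSL10 (LOC_Os12g30824), a diterpene synthase gene of oryzalexin synthesis, with a difference of 0.27, and again no tested gene was nearer. Both PR10b and OsKSL10 reached the minimum count of 10 only in modd mutant 1 and DongJin 2. A profile high in those libraries was thus partly set by the filter, and this match is no support. For RSOsPR10 and PBZ1 it was LOC_Os11g28530, listed among the diterpenoid genes, with differences of 0.18 and 0.20. Of all tested genes, 1 was nearer to RSOsPR10 and 3 were nearer to PBZ1. How much each library contributes to these differences was not tested.

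Most of the other diterpenoid phytoalexin genes had their highest level in the same library. Of 13 loci, among them genes of phytocassane, oryzalexin and momilactone synthesis, 10 were highest in the library labelled modd mutant 1 by normalised CPM. The exceptions were OsKSL5 (LOC_Os02g36220) and CYP71Z6 (LOC_Os02g36150), highest in DongJin 1, and OsKSL6 (LOC_Os02g36264), highest in modd mutant 2 by a margin under 1 read. Of the 6 loci with enough reads to be tested, 5 were highest in modd mutant 1, as were 27.5% of all tested genes. No such share is given for genes with too few reads. OsCPS2 (LOC_Os02g36210), the cyclase that opens the phytocassane branch, had 53.0 and 2 reads in the modd-labelled libraries, against 5 and 25 reads in DongJin. OsKSL7 (LOC_Os02g36140), a phytocassane synthase gene, had 38 and 9 reads under the mutant label, against 9 and 14 reads in DongJin. CYP701A8 (LOC_Os06g37300), a cytochrome P450 gene, had 64.0 and 14 reads, against 18 and 19 reads in DongJin. For OsCPS2, OsKSL7 and CYP701A8, modd mutant 1 was the high library and modd mutant 2 was at or below DongJin 1. LOC_Os11g28530, with the smallest p of the list, differed. It had 36 and 14 reads in the modd-labelled libraries, against 7 and 12 reads in DongJin. Its modd mutant 2 was thus above both DongJin libraries, and its log2 fold change was 0.52 without modd mutant 1. Of the 6 tested, none was called by edgeR over all genes, 1 had an unadjusted p under 0.05, LOC_Os11g28530, and 5 had a positive log2 fold change, with a median of 1.01. DESeq2 gave none of them an adjusted p, and limma called none. The median was -0.48 without modd mutant 1, where 7 were tested and 6 were negative. OsCPS2, OsKSL7 and OsKSL10 reached the minimum count of 10 only in modd mutant 1 and DongJin 2. Their signs, their place as highest in modd mutant 1 and their part in the median of 1.01 are therefore no support.

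Among other PR families, 1 gene was called. The list held 7 loci entered as a glucanase, chitinases, PR4, PR5, a peroxidase and a further PR10 gene, of which 6 were tested and 1 was called, higher. Over all tested genes, 0.837% were called and 0.501% were called higher. All 6 had positive log2 fold changes, with a median of 0.63, and with a median of 0.38 and all 6 still positive without modd mutant 1. The median over all tested genes was 0.005 with all libraries, and the share of them with a positive value is not given here. LOC_Os07g48020, entered as the peroxidase, was at 98.55 and 80.9 FPKM in the modd-labelled libraries, against 52.0 and 43.3 FPKM in DongJin, with no overlap. It rose by 0.87 ± 0.125 on the log2 scale (SE, edgeR adjusted p = 0.0235), and by 0.73 without modd mutant 1. DESeq2 called it too, and limma did not. Cht1 (LOC_Os06g51060), a chitinase gene, was at 30.2 and 18.0 FPKM under the mutant label, against 15.2 and 9.88 FPKM in DongJin (log2 fold change 0.89 ± 0.279, SE, edgeR adjusted p = 0.181). LOC_Os01g71340, entered as the glucanase, was at 43.45 and 26.6 FPKM, against 21.3 and 17.3 FPKM in DongJin (log2 fold change 0.81 ± 0.226, SE, edgeR adjusted p = 0.138). In these 3 loci DongJin 2 was the lowest library, whereas for PR1b, PBZ1, PR10b and OsCPS4 it was the second highest.

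Most genes that supply the precursor were not highest in modd mutant 1, which also holds for all tested genes, of which 27.5% were. Of 10 loci of the plastid pathway to geranylgeranyl diphosphate, all were tested, none was called by edgeR, DESeq2 or limma, and 1 was highest in modd mutant 1 by normalised CPM. The median log2 fold change was -0.16, and 3 had an unadjusted p under 0.05 in edgeR, all lower. The share of all tested genes under 0.05 is not given here. OsDXR (LOC_Os01g01710), which codes for an early enzyme of that pathway, was at 67.7 and 74.4 FPKM in the modd-labelled libraries, against 78.7 and 81.0 FPKM in DongJin. The 3 loci with the smallest p, LOC_Os05g33840, LOC_Os06g05100 and LOC_Os07g09190, were entered as isoforms of the first enzyme, and had log2 fold changes of -0.39, -0.27 and -0.62 (edgeR adjusted p of 0.169, 0.241 and 0.275).

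Most regulators of defence had lower levels under the mutant label, without passing the test. Of 11 tested, none was called by edgeR, 8 had negative log2 fold changes and the median was -0.61, or -0.58 without modd mutant 1. In edgeR 8 had an unadjusted p under 0.05, 7 of them lower, but the share of all tested genes under 0.05 is not given here. DESeq2 and edgeR without robust estimation each called 2, OsWRKY71 and OsWRKY76, both lower, and limma called none. Over all genes DESeq2 called 350 and edgeR without robust estimation called 180. OsWRKY76 (LOC_Os09g25060), known in rice as a repressor of PR and phytoalexin genes, had 200 and 196 reads in the modd-labelled libraries, against 488 and 850 reads in DongJin (log2 fold change -1.80 ± 0.321, SE, edgeR adjusted p = 0.105). LOC_Os06g44010 and LOC_Os05g25770, entered as WRKY factors, had log2 fold changes of -2.27 and -0.61 (edgeR adjusted p of 0.0658 and 0.156). Only OsWRKY76 is described by function here, though other regulators were lower too. A link between any of the 11 regulators and the 9 genes was not tested.

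**Figure D4:**
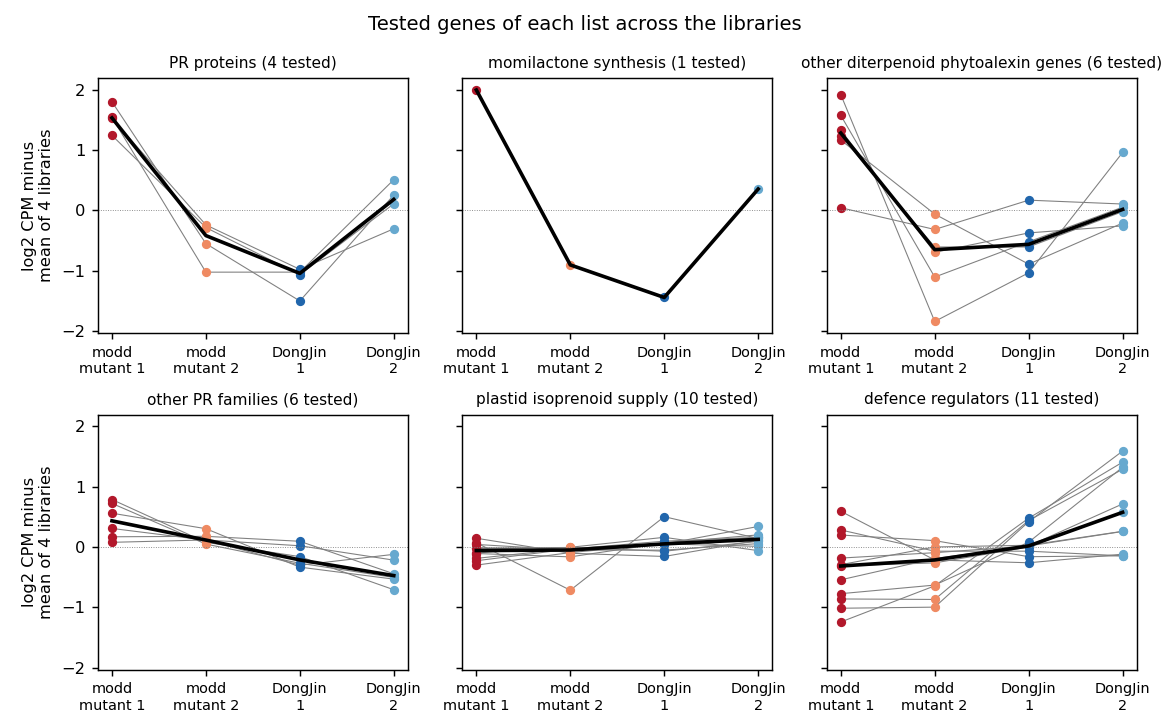
Log2 CPM of each tested gene in 6 lists, after subtracting the gene's mean over the 4 libraries; points are genes, grey lines join the points of 1 gene, and the black line is the median. In modd mutant 1 the median is 1.53 over 4 PR genes and 1.28 over 6 other diterpenoid genes, and OsCPS4, the only momilactone gene tested, is at 1.99. PR10b, OsCPS2, OsKSL7 and OsKSL10 reached the minimum count of 10 only in modd mutant 1 and DongJin 2, so their part in these medians is no support. The median of the 11 regulators is 0.58 in DongJin 2.

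Identifiers of this form number loci along the chromosome, so neighbouring numbers were taken as neighbouring genes. Around the momilactone genes, 7 identifiers were listed, 4 of them the genes above, and 5 had under 10 reads in every library. CYP99A2 (LOC_Os04g10160), a cytochrome P450 gene of the same cluster, had 12 and 5 reads in the modd-labelled libraries, against 1 and 5 reads in DongJin. In the PR10 stretch 8 identifiers were listed, and 3 of the 5 that are not PR10 genes named here were tested. In the PR1a stretch 8 were listed and 2 of the other 7 were tested. Around PR1b 3 were listed and 1 of the other 2 was tested. None of the 6 tested neighbours was called by edgeR, and none had an unadjusted p under 0.05. Of the 17 neighbours in the 4 stretches, 6 were highest in modd mutant 1, among them LOC_Os07g03730 and CYP99A2. Of all tested genes, 27.5% were highest there, a share that leaves out genes with too few reads, as most of the 17 were.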

How the data were processed

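RNA-seq tables of 4 rice libraries were used, 2 labelled modd mutant and 2 DongJin, grouped and numbered by their titles. RSEM, Bowtie and BWA are named, with no version or role, in the submitters' processing notes, and the genome build is not given in the sources used here. Expected counts, deposited by the authors and named so in the file headers, are estimated and can split the reads of similar genes. The FPKM values deposited by the authors scale these by length and library total, so both depend on how shared reads were split. Only genes above 0 are listed, and missing rows were counted as 0. Counts were rounded and fitted in edgeR 4.0.16 under R 4.3.3 (TMM factors from 0.964 to 1.02, filterByExpr with a minimum count of 10 and a total of 15, robust quasi-likelihood, no covariate). The fit was also run on simulated counts, with the replicate spread set by the trend over tested genes. That spread does not represent the wider spread of the genes described here, and no outcome is given. SE is the absolute log2 fold change over the square root of F. Alternatives were other factors and filters, DESeq2 1.42.0, limma 3.58.1 on log2(FPKM + 1) and log2(FPKM + 0.1), a replicate block, and each library left out. Ratios of reads carry exact conditional binomial intervals at 95%, from effective library sizes.

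The 9 genes and the lists were chosen with earlier results of these data known. Named genes are the 9, MODD, and up to 3 tested genes with the smallest p in each list, and the list gene nearest to each tested one. Of 61 listed symbols, 35 were found in the reference gene table (assembly ASM3414082v1) on the identifier's chromosome, among them 5 of the 9 (PR1a, PR1b, PR10b and RSOsPR10 keep the names given with their identifiers), and 1 on another chromosome, which was dropped. Loci without a symbol there are printed by identifier, and what they were entered as rests on the list alone. Root and leaf markers were a separate list for checking the tissue. Genes named outside these (OsDXR, OsCPS2, OsKSL5, OsKSL6, CYP71Z6, CYP99A2, OsWRKY71 and LOC_Os07g03730) were chosen after their values were seen.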

Additional observations from a re-analysis of the deposited data

How the results depend on the processing

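Of the 9 genes, 0 were called with all 4 libraries by edgeR, 0 under each alternative that kept all 4, and 0 to 2 with a library left out, the 2 being RSOsPR10 and PR1a without modd mutant 2, where PR1a passed the count filter only through modd mutant 1, so that its call is no support. Over all genes, 162 were called, against 102 with upper-quartile factors, 350 with DESeq2, 764 without the count filter, 1 with limma at either pseudocount, and, with a library left out, 144 without modd mutant 1, 591 without modd mutant 2, 2483 without DongJin 1 and 457 without DongJin 2. The cause was not tested. With the replicate block it was 870. The same-numbered libraries had a correlation of deviations of 0.013, so the numbers were not taken to pair them. With a library left out, the log2 fold change ran from -0.19 to 2.72 for PR1b, from -1.11 to 2.01 for PR10b and from -0.68 to 2.85 for OsCPS4, each lowest without modd mutant 1. It ran from 0.08 to 1.79 for PBZ1 and from 0.38 to 2.20 for RSOsPR10. Under the 9 alternatives that kept all 4 libraries the 5 tested genes kept a positive sign, from 0.52 to 1.57. PR1a could be fitted without the count filter (1.43, edgeR adjusted p = 0.761) and with a mean of at least 1 FPKM (1.44, 0.639). OsKSL4, CYP99A3 and MAS had 8 reads or fewer in every library, and there depth limits what can be seen. The alternative that sums PR1a with its neighbour was chosen after seeing the data.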

Other observations

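OsCPS4 is listed with 3 transcripts, and its length in the tables, an average over transcripts weighted by their estimated abundance, was 2578 and 2537 bases in the libraries labelled modd mutant, against 2800 and 2800 bases in DongJin. The shares of the transcripts were not analysed here. Of 5193 tested genes whose length varied between libraries, 32.9% had lengths that did not overlap between the groups. The estimates for OsCPS4 rest on 119 and 14 reads under the mutant label and on 9 and 35 reads in DongJin.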
